A study of Sus scrofa with 20 samples.

Results

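The growth hormone and insulin-like growth factor (IGF) axis was examined in RNA-seq libraries of backfat, the subcutaneous fat of the pig's back, and of liver. Its members were taken by symbol, as 10 genes: the growth hormone receptor GHR, the ligands IGF1 and IGF2, the receptor IGF1R, the acid-labile subunit IGFALS and the binding proteins IGFBP1, IGFBP2, IGFBP3, IGFBP5 and IGFBP6. Of these, 8 could be paired with a pig Ensembl identifier of the count table, and all 8 passed the filter on low counts, out of 31907 genes counted and 16275 tested. IGF2 and IGFBP3 had no identifier in the table that pairs symbols with pig genes, and they were not analysed here.

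Both tissues came from 5 Nanchukmacdon boars, a Korean breed derived from the Jeju native pig, kept on 1 farm and drawn at random. The labels give all samples as wild type and normal at 22 months, with no treatment, while the study's methods give a higher average age, and tissue was the only contrast (n = 5 libraries per tissue). The animals are named by the numbers in the headers of the count table, 65, 67, 69, 71 and 72. The libraries were made from bulk tissue, in which fewer cells of a type and less RNA per cell cannot be told apart.

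Growth hormone from the pituitary binds GHR on its target cells, and the receptor signals through the kinase JAK2 and STAT5 transcription factors. One of the genes induced in this way is IGF1, whose product binds IGF1R on many cells and, in blood, comes largely from the liver. Most circulating IGF is carried by binding proteins of the IGFBP family, and IGFALS joins IGF and IGFBP3 or IGFBP5 in a large, long-lived complex. In adipose tissue, growth hormone is known for promoting the release of stored fat, and IGF1 for its action on fat cell precursors.

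The libraries held between 43820042 and 61772737 counts. The mitochondrial genes took 6.38% to 20.2% of the counts in 9 libraries and 44.5% in the liver library of boar 67. Markers of the labelled tissues were present in the libraries they name. The summed level of the 5 adipocyte markers was 10752 to 16338 CPM (CPM being counts scaled to the size of the library, here without further normalization) in backfat and 7.05 to 8.69 CPM in liver. The 6 hepatocyte markers summed to 18334 to 78454 CPM in liver, lowest in boar 67, and to 201 to 696 CPM in backfat, highest in boar 69. In backfat most of that sum was APOA1, at 591 CPM in boar 69 and at 198 to 291 CPM in the other 4. Albumin, the main plasma protein made by hepatocytes, was at 44.6 CPM in the backfat of boar 69 and at 0.155 to 0.479 CPM in the other 4 backfat libraries. These 2 libraries are named beside several of the results they touch, but not beside all of them.

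All 8 members differed between the tissues by edgeR's quasi-likelihood test at a Benjamini-Hochberg adjusted p of at most 0.05 over all genes tested, 5 of them higher in backfat and 3 higher in liver. Among all genes tested the same held for 55.0%, with 28.0% higher in backfat and 27.0% higher in liver. With a log2 fold change of at least 2 required as well, which is what "called" means from here on, 6 of the 8 members were called, against 22.3% of all genes. IGF1, IGFBP5 and IGFBP6 were called higher in backfat, where 11.1% of all genes were called. IGFALS, IGFBP1 and IGFBP2 were called higher in liver, where 11.2% of all genes were called. The libraries of the tissues did not overlap for 7 of the 8 members, all but GHR, against 42.6% of all genes. By library size alone the member that overlapped was IGFALS and not GHR. The median absolute log2 fold change was 3.84 over the 8 members and 0.81 over all genes tested. IGFBP1, which had no count in backfat, had the largest value of the 8 both as fitted and at its lower bound. Its exact size could therefore not move this median.

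**Figure D1:**
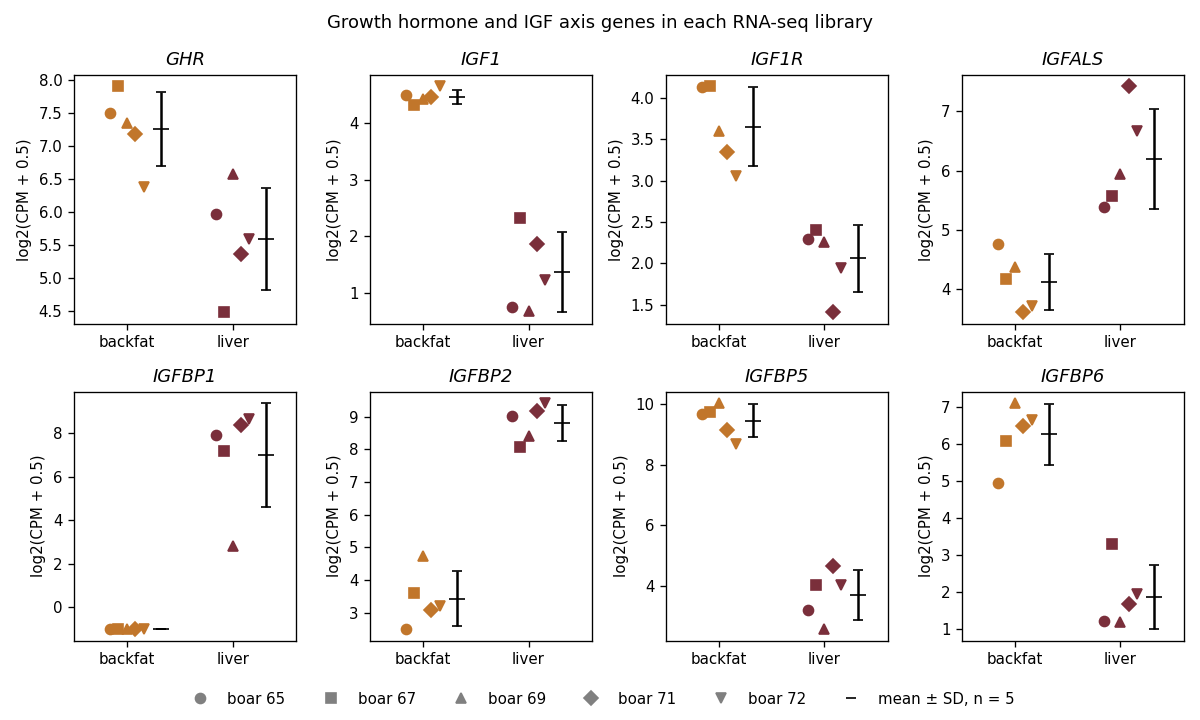
Level of each of the 8 members in the 10 libraries, as log2 of TMM-normalized CPM plus 0.5, with 1 symbol per boar and the mean ± SD of the 5 libraries of a tissue in black; each panel has its own scale. On this scale the tissues overlap in GHR alone (by library size alone, in IGFALS alone), and the liver library of boar 69 stands below the other 4 liver libraries in IGFBP1.

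GHR, the receptor through which growth hormone enters the axis, is encoded on chromosome 16 (Sscrofa11.1, chr16:27126300-27422618, plus strand). In boars 65, 67, 69, 71 and 72 in that order, which is kept throughout, its level was 179.6, 239, 161, 144 and 82.8 CPM in backfat. Levels of genes are given here and from now on after TMM normalization, which scales libraries by the trimmed mean of their log ratios. Cell type markers and their sums are the exception, and stayed scaled by library size alone throughout. In liver it was 62.2, 21.9, 94.4, 40.8 and 47.7 CPM. Every boar had the higher level in backfat, but the backfat of boar 72 lay below the liver of boar 69. The mean was 161 ± 56.6 CPM in backfat and 53.4 ± 27.1 CPM in liver (SD, n = 5 each). The log2 fold change of backfat over liver was 1.59 (SE 0.37), with an adjusted p of 0.00268 by edgeR, so that GHR differed between the tissues without reaching the fold change set for a call. In a test of whether the difference exceeded 1 on the log2 scale (edgeR's glmTreat), the adjusted p was 0.0644. Without the liver of boar 67, the liver library with the lowest GHR, the log2 fold change was 1.36.

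IGF1, the ligand that growth hormone induces, lies on chromosome 5 (chr5:81762027-81909253, plus strand). Its level in backfat was 22.0, 19.3, 20.8, 21.3 and 24.5 CPM. In liver it was 1.20, 4.51, 1.10, 3.13 and 1.84 CPM, resting on 48 to 167 counts per library. The highest liver library, that of boar 67, stood well under the lowest backfat library. IGF1 was therefore higher in backfat in 5 of 5 boars, with a mean of 21.6 ± 1.91 CPM against 2.36 ± 1.45 CPM (SD, n = 5 each) and a log2 fold change of 3.20 (SE 0.37, edgeR adjusted p = 1.16e-05). In backfat it was also the steadiest member: its coefficient of variation over the boars was 8.83%, where the median over all genes tested was 23.2%. The highest backfat level was 1.27 times the lowest, whereas in liver that ratio was 4.08.

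IGF1R, the receptor kinase that binds IGF1, is encoded on the minus strand of chromosome 1 (chr1:137383623-137691038). It was measured at 17.1, 17.2, 11.6, 9.64 and 7.81 CPM in backfat and at 4.41, 4.81, 4.27, 2.15 and 3.34 CPM in liver. The tissues did not overlap, and backfat was the higher in 5 of 5 boars. The log2 fold change was 1.74 (SE 0.29, edgeR adjusted p = 0.000257), under the fold change set for a call. In the RefSeq annotation 843 exonic bases at the 3′ end of IGF1R are shared with PGPEP1L on the opposite strand. The counting was not strand-specific and used the Ensembl annotation, with 6346 exonic bases for IGF1R against 12357 in RefSeq. Whether reads of the shared stretch were counted, and for which gene, was not tested.

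IGFALS is the subunit that holds IGF and its binding protein in the large complex of blood. It is a short gene on chromosome 3 (chr3:40173595-40177789, plus strand). Its level was 26.6, 17.6, 20.3, 11.7 and 12.7 CPM in backfat and 41.3, 47.4, 60.8, 171 and 102 CPM in liver. After TMM normalization all liver libraries lay above all backfat libraries, and the liver of boar 71 was the highest of them. The mean was 17.8 ± 6.03 CPM in backfat and 84.5 ± 53.9 CPM in liver (SD, n = 5 each), a log2 fold change of -2.25 (SE 0.40, edgeR adjusted p = 0.000387). The call rested on the liver library of boar 71, since the log2 fold change was -1.85 without it, with an adjusted p of 0.0004. Scaling by library size alone gave -1.43. The body of IGFALS overlaps that of LOC110259948 on the opposite strand, but no exonic base is shared.

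The 250 bases before the RefSeq start of IGFALS (chr3:40173345-40173594, plus strand) are shown because growth hormone signals through STAT5, whose known motif TTCNNNGAA they hold once, at base -33 counted back from the start; the match is in capitals.
IGFALS: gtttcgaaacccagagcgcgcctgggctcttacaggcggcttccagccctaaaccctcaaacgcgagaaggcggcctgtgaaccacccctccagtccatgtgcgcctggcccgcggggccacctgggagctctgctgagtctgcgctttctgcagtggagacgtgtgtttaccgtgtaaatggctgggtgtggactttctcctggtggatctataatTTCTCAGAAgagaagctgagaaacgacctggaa
Read on both strands, the motif was found in 6.12% of the 19556 windows of that length before the genes of the annotation, and in none of the other 7 members' windows. A match of letters does not show that a factor binds there. The annotated IGFALS starts 23 exonic bases before its first coding base, and the start of transcription was not measured here.

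IGFBP1 is a small secreted binding protein that, by textbook knowledge, is made by hepatocytes and lowered by insulin. It lies on the minus strand of chromosome 18 (chr18:50018487-50022799), 9062 bases from IGFBP3. No read was counted for it in any of the 5 backfat libraries. In liver it was at 243, 147, 6.54, 328 and 404 CPM, from 308 counts in boar 69 to 14906 in boar 72. IGFBP1 was thus seen in liver alone, at levels that differed 61.8 times between the lowest and the highest boar, and 2.75 times among the 4 boars other than 69. The mean in liver, 226 ± 156 CPM (SD, n = 5), was at least 24627-fold higher than the level that 3 counts over all backfat libraries would give, a floor that covers counting error only. For the liver of boar 69 taken by itself the same bound was 714-fold. The adjusted p by edgeR was 5.4e-05, and the fitted fold change, which depends on the prior count added to the zeros, is not given as a size.

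A stretch of the upstream sequence of IGFBP1 is shown because of that pattern, from base -250 to base -121 before the RefSeq start (chr18:50022920-50023049, minus strand). In capitals are CAAAACA, the core of the insulin response element bound by FOXO factors, and ATTAAC, which is the HNF1 core GTTAAT read on the other strand.
IGFBP1: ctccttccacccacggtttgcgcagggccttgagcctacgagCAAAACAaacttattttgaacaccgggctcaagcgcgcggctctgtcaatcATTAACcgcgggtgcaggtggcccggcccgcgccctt
The matches begin at bases -208 and -157. The annotated IGFBP1 starts 10 exonic bases before its first coding base, and the start of transcription was not measured here. Over both strands, CAAAACA was found in 4.18% of the 19556 windows and GTTAAT in 5.9%. Among the members' windows the first was found in IGFBP1 alone and the second in IGFBP1 and GHR. These too are matches of letters, with no measure of binding behind them.

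IGFBP2, a binding protein abundant in blood, and IGFBP5, a binding protein that also attaches to extracellular matrix, are neighbours on chromosome 15. They stand tail to tail (chr15:118822092-118850985, plus strand, and chr15:118861816-118877787, minus strand) with 10831 bases between them. They differed between the tissues in opposite directions. IGFBP2 was at 5.14, 11.7, 26.2, 7.98 and 8.80 CPM in backfat and at 517, 270.4, 337, 573 and 686 CPM in liver. Its mean was 11.97 ± 8.31 CPM in backfat and 477 ± 171 CPM in liver (SD, n = 5 each), a log2 fold change of -5.32 (SE 0.49, edgeR adjusted p = 1.82e-06). The highest backfat level of IGFBP2 was in boar 69. In that backfat library the 6 hepatocyte markers were highest, at 696 CPM against 201 to 295 CPM in the other 4, most of it APOA1. The part of these markers in the level of IGFBP2 was not tested. Without that library the log2 fold change was -5.82.

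IGFBP5 was at 807, 846, 1049, 566 and 407 CPM in backfat and at 8.73, 15.8, 5.50, 24.8 and 16.0 CPM in liver. No other member reached such a level in backfat, and its means were 735 ± 251 and 14.2 ± 7.49 CPM (SD, n = 5 each), a log2 fold change of 5.70 (SE 0.47, edgeR adjusted p = 6.92e-07). Per length of transcript (RPKM, reads scaled by both library size and exon length), the level of IGFBP5 was 9.46 to 37.2 times that of IGFBP2 in the 5 backfat libraries. In the 5 liver libraries the level of IGFBP2 was 72.4 to 259 times that of IGFBP5. The order of the neighbours was thus turned around in every boar.

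IGFBP6, a binding protein with a preference for IGF2, is encoded on chromosome 5 (chr5:18352884-18357225, plus strand). Its level was 30.6, 67.8, 137.6, 89.8 and 98.98 CPM in backfat and 1.82, 9.42, 1.76, 2.69 and 3.39 CPM in liver. Backfat was higher in 5 of 5 boars with no overlap, at a mean of 84.9 ± 39.5 against 3.82 ± 3.21 CPM (SD, n = 5 each). The log2 fold change was 4.48 (SE 0.55, edgeR adjusted p = 2.07e-05), and 5.10 without the liver of boar 67, which stood apart from the other liver libraries. That library was also the highest of the liver libraries in the summed level of the 2 measured skeletal muscle markers, 97.4 CPM against 0.246 to 0.958 CPM in the other 4. By library size alone it was the highest of them too in the sums of fibroblast and stellate cell, bile duct and lymphocyte markers, at 523, 46.0 and 32.2 CPM. For the fibroblast and stellate cell sum, TMM normalization did not keep that rank, and the liver of boar 71 was the highest. In backfat the muscle sum was highest in boar 65, at 549 CPM, the backfat library with the lowest IGFBP6. The part of these markers in the level of IGFBP6 was not tested.

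Fibroblast and stellate cell markers moved with IGF1, IGFBP5 and IGFBP6, the members called higher in backfat. Their summed level over all 5 genes of the list was 18611 to 38932 CPM in backfat and 248 to 523 CPM in liver, and no gene of the list was at 0 in a whole tissue. Adipocyte markers moved in the same direction, as did the 2 measured endothelial markers of 4 on that list, PECAM1 and CDH5, which summed to 590 to 1164 CPM in backfat and 52.5 to 102 CPM in liver. Within backfat, the fibroblast sum was lowest in boar 69, the library with the highest IGFBP5 and IGFBP6. Most of that sum was COL1A1, the only gene of the list that was lowest in this library, at 15983 CPM. PDGFRA was highest there, at 92.4 CPM, and DCN, LUM and PDGFRB lay between the extremes of the backfat libraries. The endothelial sum was lowest in boar 72, the library with the lowest IGFBP5. The part of these markers in the differences of the 3 members was not tested.

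**Figure D2:**
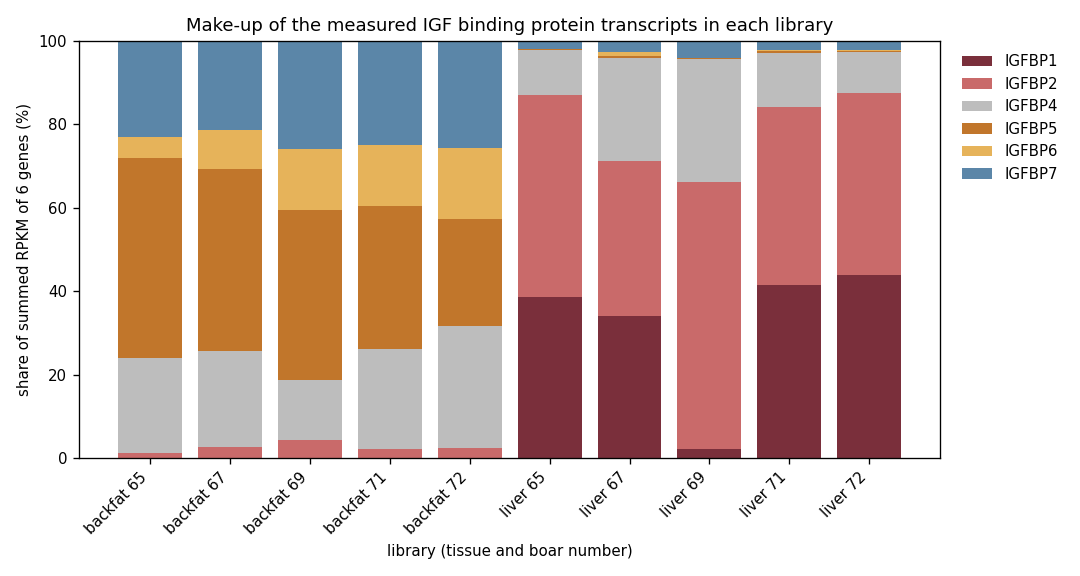
Share of each of 6 measured IGF binding protein genes in their summed RPKM, in percent, with 1 bar per library named by tissue and boar. IGFBP5 has the largest mean share in backfat (38.4%), IGFBP2 and IGFBP1 the largest in liver (47.2% and 32.0%), and IGFBP1 is a narrow band in the liver of boar 69.

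The make-up of the family was compared within each library, per length, over the 4 measured IGFBP members together with IGFBP4 and IGFBP7, the latter an IGFBP-related protein that binds IGF weakly. In backfat, IGFBP5 took 38.4% ± 8.75 of the summed RPKM, IGFBP7 24.2% ± 1.96, IGFBP4 22.7% ± 5.39, IGFBP6 12.1% ± 4.86 and IGFBP2 2.50% ± 1.12 (SD, n = 5). In liver, IGFBP2 took 47.2% ± 10.3 and IGFBP1 32.0% ± 17.1, followed by IGFBP4 with 17.6% ± 8.93 and IGFBP7 with 2.69% ± 0.820. IGFBP5 and IGFBP6 made up 0.326% ± 0.139 and 0.285% ± 0.307 there. The shares of IGFBP4 overlapped between the tissues, 14.4% to 29.4% in backfat and 9.80% to 29.4% in liver, and those of the other 5 genes did not. In the liver of boar 69, where IGFBP1 was lowest, its share was 2.11% and that of IGFBP2 was 64.0%. Such shares are of 6 genes and leave out IGFBP3.

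Among the receptors, IGF1R took 13.6% ± 2.05 of the summed RPKM of IGF1R, the insulin receptor INSR and the clearance receptor IGF2R in backfat and 3.57% ± 0.909 in liver (SD, n = 5). INSR took 15.0% ± 1.71 and 34.0% ± 20.8, and IGF2R 71.4% ± 2.16 and 62.4% ± 20.7. The liver values were moved by the library of boar 67, in which INSR took 69.7% and IGF2R 26.6%. In the other 4 liver libraries INSR took 25.1% ± 6.96 and IGF2R 71.4% ± 5.99 (SD, n = 4), and IGF2R was the largest of the 3 in each of them. The shares of IGF2R overlapped between the tissues.

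In RPKM, the order of the members in backfat was IGFBP5 at 122 ± 41.8, IGFBP6 at 38.5 ± 17.9, GHR at 33.7 ± 11.8, IGFALS at 8.75 ± 2.97, IGFBP2 at 8.42 ± 5.85, IGF1 at 3.91 ± 0.345, IGF1R at 1.996 ± 0.676 and IGFBP1 at 0 (SD, n = 5). Of these neighbours, IGFBP6 and GHR overlapped, as did IGFALS and IGFBP2, and IGFBP2 and IGF1. In liver the order was IGFBP2 at 335 ± 120.3, IGFBP1 at 269.6 ± 185.9, IGFALS at 41.6 ± 26.5, GHR at 11.2 ± 5.66, IGFBP5 at 2.36 ± 1.25, IGFBP6 at 1.73 ± 1.45, IGF1R at 0.598 ± 0.168 and IGF1 at 0.427 ± 0.262. There, IGFBP2 overlapped IGFBP1, IGFBP1 overlapped IGFALS, IGFBP5 overlapped IGFBP6, and IGF1R overlapped IGF1. IGF1 was thus the member with the lowest mean in liver. The level of GHR was 3.89 to 14.2 times that of IGF1 in the backfat libraries and 5.59 to 98.6 times in the liver libraries, with the extremes in boars 67 and 69 in liver.

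The genes that take the signal of GHR into the cell were read from the same fit. Of 13 genes on this list 12 were tested, and SOCS2 had no row in the count table. STAT5A, one of the paired transcription factors that GHR activates, was the only gene of the list that was called. It was at 52.9 to 83.6 CPM in backfat and 8.54 to 27.9 CPM in liver, with a log2 fold change of 2.25 (SE 0.30, edgeR adjusted p = 3.69e-05). Its paralogue STAT5B was at 62.9 ± 10.9 and 61.3 ± 3.83 CPM (SD, n = 5 each; log2 fold change 0.04, edgeR adjusted p = 0.849), and JAK2 at 11.9 ± 1.68 and 12.01 ± 4.81 CPM (log2 fold change -0.01, edgeR adjusted p = 0.975). Beside STAT5A no gene passed the adjusted p in the direction of backfat, and 4 genes passed it in the direction of liver, among them STAT3, SH2B1 and SH2B2 with log2 fold changes of -0.82, -0.52 and -1.04. CISH, a feedback inhibitor induced through STAT5, was at 66.2 ± 42.6 and 30.8 ± 20.8 CPM (SD, n = 5 each; log2 fold change 1.10, edgeR adjusted p = 0.0736). These directions depended on the scaling: by library size alone 6 of the 12 genes passed in the direction of backfat and 0 in the direction of liver, with SH2B1 at 0.20. With the boar as a replicate block 2 genes passed in the direction of backfat and 3 in that of liver, CISH passing (edgeR adjusted p = 0.00255) and SH2B2 no longer doing so (edgeR adjusted p = 0.0575). In the main fit 28.0% of all genes tested passed in the direction of backfat and 27.0% in that of liver. The median log2 fold change of the list was -0.06 and that of all genes 0.00014.

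Of the other ligands, receptors and binding proteins, 5 of 8 were tested. GH1, the hormone itself, had no identifier, and GHRHR and IGFBPL1 did not pass the filter. IGFBP7 was called, at 372 to 640.4 CPM in backfat and 82.8 to 146.5 CPM in liver (log2 fold change 2.06, SE 0.25, edgeR adjusted p = 2.01e-05). It stood close to the threshold, at 1.89 without the backfat of boar 69, 1.94 without the liver of boar 67 and 1.99 without the liver of boar 69. INSR and IGFBP4 passed the adjusted p in the direction of liver, with log2 fold changes of -1.50 and -0.67. When scaled by library size alone, IGFBP4 was at 0.06. Under that scaling 3 of the 5 genes passed in the direction of backfat and 0 in that of liver, so that INSR no longer passed either. INSR was highest in the liver of boar 67, at 79.8 CPM where the median of the liver libraries was 21.2 CPM, and its log2 fold change was -0.95 without that library (edgeR adjusted p = 0.00241). INSRR and IGF2R did not pass in the main fit, with log2 fold changes of 0.63 and 0.02.

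Proteases free IGF by cutting its binding proteins, and the stanniocalcins STC1 and STC2 inhibit the pappalysins among them. Of 7 genes on this list 6 were tested, and PAPPA did not pass the filter, at 0.137 to 0.503 CPM in backfat and 0 to 0.0810 CPM in liver. ADAM12 and HTRA1 were called higher in backfat. Among all genes tested 11.1% were called higher in backfat and 11.2% higher in liver. ADAM12 was at 43.1 to 111 CPM in backfat and 2.91 to 6.11 CPM in liver (log2 fold change 4.10, SE 0.30, edgeR adjusted p = 2.17e-07), and HTRA1 at 243.5 to 394 and 13.2 to 57.6 CPM (log2 fold change 2.95, SE 0.38, edgeR adjusted p = 2.89e-05). PLG, the precursor of plasmin, a plasma protein of hepatocytes, was called higher in liver at 937 to 3806 CPM against 0.0343 to 3.82 CPM in backfat (edgeR adjusted p = 3.1e-05). Its highest backfat level was in boar 69, the library with the highest hepatocyte markers. In addition PAPPA2 and STC1 passed the adjusted p in the direction of backfat, with log2 fold changes of 1.28 and 1.68. Without the liver of boar 67, PAPPA passed the filter, and PAPPA and STC1 were called higher in backfat as well, at 4.39 and 2.26, which made 5 called genes in place of 3.

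**Figure D3:**
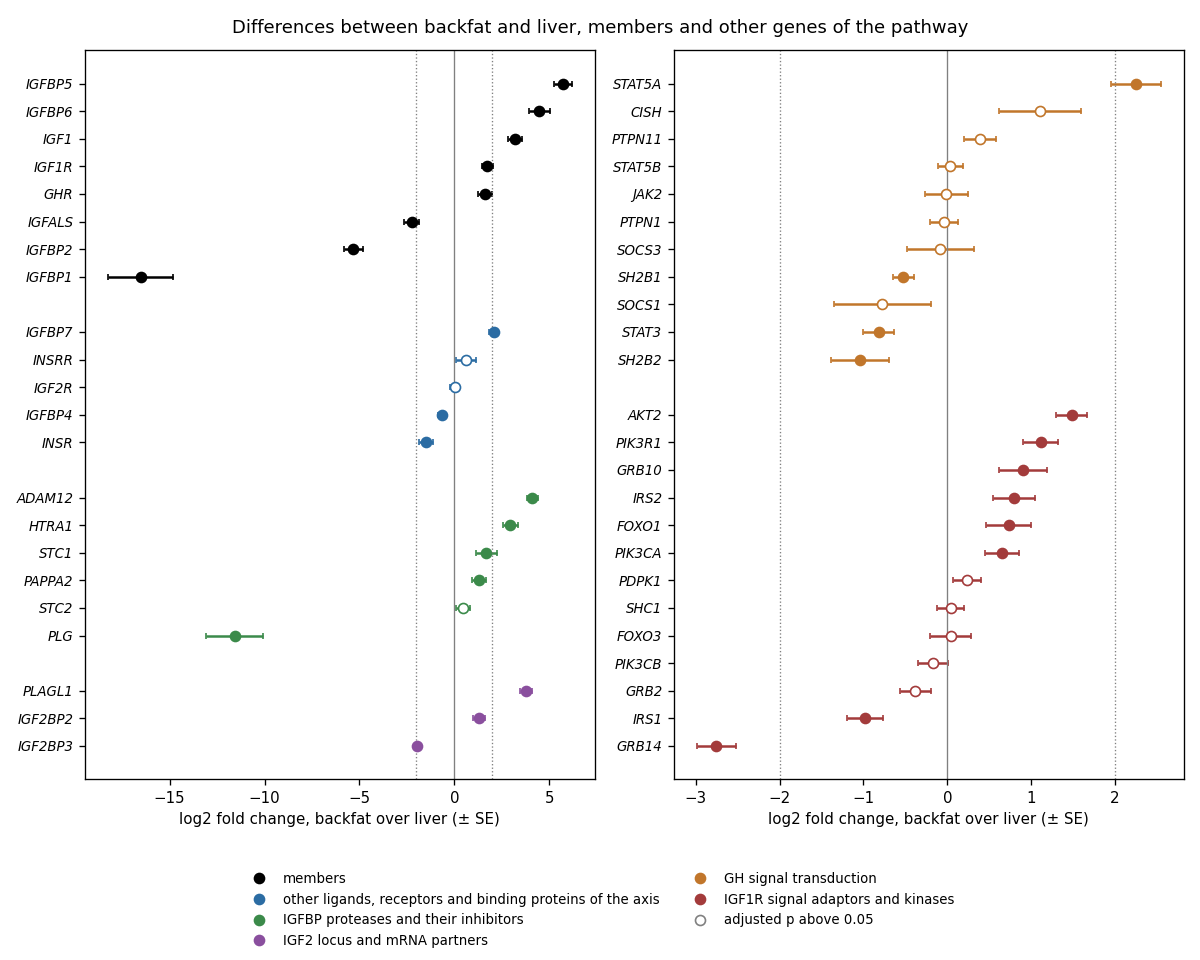
Log2 fold change of backfat over liver with its standard error for the members (black) and for genes of 5 other lists of the pathway, open circles marking an adjusted p above 0.05 and dotted lines the fold change set for a call; the panels have different scales, and the fitted value of IGFBP1 depends on the prior count. The members span both sides, from IGFBP5 at 5.70 to IGFALS at -2.25 and IGFBP2 at -5.32.

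The median absolute log2 fold change was 0.76 over the adaptors and kinases behind IGF1R, against 0.81 over all genes tested. Of 16 genes on the list 14 were tested, AKT1 having no identifier and IRS4 not passing the filter. GRB14, an adaptor that inhibits the insulin receptor, was the only called gene, at 5.23 to 7.67 CPM in backfat and 28.9 to 65.2 CPM in liver (log2 fold change -2.75, SE 0.23, edgeR adjusted p = 7.03e-07). Passing the adjusted p in the direction of backfat were 7 genes, among them AKT2, PIK3R1, GRB10, IRS2, FOXO1 and PIK3CA with log2 fold changes of 1.48, 1.11, 0.90, 0.80, 0.73 and 0.65. IRS1, a docking protein for phosphatidylinositol 3-kinase, passed in the direction of liver at -0.98, whereas its paralogue IRS2 was among those higher in backfat. Of all genes tested, 28.0% passed in the direction of backfat and 27.0% in that of liver. By library size alone 11 genes passed in the direction of backfat and 1 in that of liver, GRB14 stood at -1.99, and AKT2 was called at 2.18.

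Of the genes that act on the IGF2 locus or on IGF mRNA, 3 of 6 were tested. PLAGL1, an imprinted zinc finger factor, was called higher in backfat at 13.9 to 25.2 CPM against 0.807 to 2.40 CPM (log2 fold change 3.78, SE 0.30, edgeR adjusted p = 4.9e-07). The mRNA-binding proteins IGF2BP2 and IGF2BP3 passed the adjusted p in opposite directions, with log2 fold changes of 1.29 and -1.95. IGF2BP3 was called without the backfat of boar 67, at -2.04, and without the liver of boar 71, at -2.07. H19 had no identifier, ZBED6 no row in the table, and IGF2BP1 did not pass the filter.

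The genes whose pattern over the 10 libraries was most like that of each member were found by the root mean square difference of log2(CPM + 0.5) after centring each gene on its mean. Out of 11599 genes with a symbol, the nearest 3 to GHR were HACD2, KLB and NID1 at 0.30 to 0.36. IGF1 was nearest to LRP3, FAP and FBXL7, at 0.11 to 0.20, the closest likeness among the members. IGF1R was nearest to PDE2A, NYNRIN and CALCOCO1 at 0.17 to 0.20, and IGFALS to GARIN5A, CMYA5 and DAB2 at 0.35 to 0.36. For IGFBP2 they were ASS1, APOA1 and HSD17B11 at 0.48 to 0.49. For IGFBP5 they were BCAM, LAMA4 and IRX3 at 0.46 to 0.51, and for IGFBP6 CD248, TSPO and LGALS3 at 0.29 to 0.41. IGFBP1 had no gene as near, its closest being APCS, UPP2 and APOA4 at 1.26 to 1.37. Between members, the most alike were GHR and IGF1R at 0.57. With a pseudocount of 2 in place of 0.5, 13 of these 24 genes were again among the nearest.

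**Figure D4:**
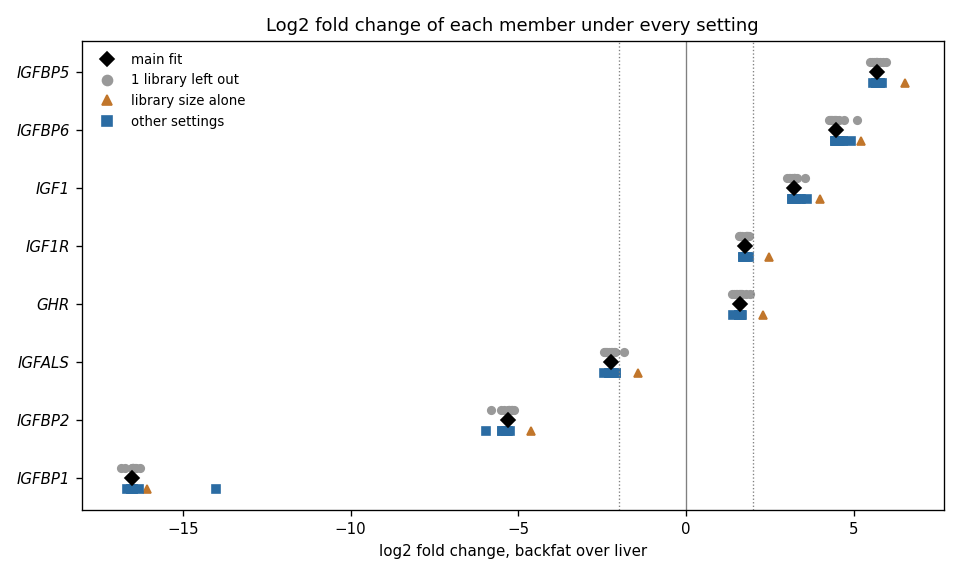
Log2 fold change of backfat over liver of each member under the main fit (diamonds), with 1 library left out (grey), by library size alone (triangles) and under the other settings (squares); dotted lines mark the fold change set for a call. No member crossed 0, and GHR, IGF1R and IGFALS crossed a dotted line.

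Across the 20 other settings every member kept its direction wherever it was tested. The threshold for a call was crossed by 3 members. GHR and IGF1R were called when scaled by library size alone, at 2.28 and 2.46, a scaling that moved the median of all genes by 0.72 towards backfat. IGFALS lost its call under that scaling and without the liver of boar 71. In that scaling 5 members were called higher in backfat and 2 higher in liver, in place of 3 and 3. Over all 16275 genes tested the calls shifted the same way, to 2874 and 1340 in place of 1814 and 1819.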

How the data were processed

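Counts per gene were deposited by the authors, who per the labels and the study's methods trimmed the reads, mapped them (HISAT2, Sscrofa11.1) and assigned them to genes by featureCounts 2.0.1 on the Ensembl release 99 annotation, unstranded; the trimming tool is given differently in the 2 sources. The bisulfite files hold no genomic position and were not used.

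The counts were filtered (filterByExpr), TMM-normalized and tested with edgeR 4.0.16 (glmQLFit and glmQLFTest, tissue as the only term) over 16275 genes, with Benjamini-Hochberg adjustment. Scripts were tested on simulated data. Symbols were paired with Ensembl identifiers (12740 tested genes had one), and positions and sequences were taken from RefSeq on Sscrofa11.1. RPKM used the exon length in the count table. SE is the absolute log2 fold change over the square root of F.

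Members and lists were chosen with earlier results of these data known. Named were all members, the called genes of each list (up to 4) and those not tested, and the 3 nearest genes of each member. Other genes of the lists were named after their values were seen, and some are counted in the lists but not reported here by name. Alternatives were DESeq2 1.42.0 (with its size factors also in edgeR), limma-voom 3.58.1, glmTreat, library size alone, other filters, removal of mitochondrial genes, a block for the boar, and leaving out libraries.

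Boar numbers in the column headers were taken to pair the tissues, since by the study's methods both came from the same 5 boars. No sample label holds these numbers. Deviations from the tissue means correlated within a boar at 0.226, 0.0945, 0.0359, 0.173 and 0.121 for boars 65, 67, 69, 71 and 72 (across genes, which are not independent). The backfat of boars 65, 71 and 72 correlated best with the liver of the same number. That of boar 67 correlated best with the liver of boar 65, and that of boar 69 with the liver of boar 72. The pairing therefore rests on the headers. Intervals and floors from counts cover counting error only.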

Additional observations from a re-analysis of the deposited data

Results flagged for a closer look

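IGFBP1 in the liver of boar 69 was far from the other liver libraries on the scale of log2(CPM + 0.5), at 6.54 CPM where the other 4 lay between 147 and 404 CPM. The gap to the nearest library was 0.751 of the whole range. The same library held the highest GHR of the liver libraries, 94.4 CPM, and the lowest IGF1, IGFBP5 and IGFBP6, at 1.10, 5.50 and 1.76 CPM. By library size alone its summed hepatocyte markers were the highest in liver, at 78454 CPM, a rank that TMM normalization did not keep. Its mitochondrial share was the lowest of all libraries, 6.38%. IGFBP6 in the liver of boar 67 was far from the other liver libraries in CPM, at 9.42 against 1.76 to 3.39 CPM, with a gap of 0.787 of the range. Among 30 sets of 5 libraries looked at these 2 were found. Chance alone flags about 1 in 20 such sets, so that 2 of 30 is near what chance gives. The sets hold the same genes and tissues on both scales and are not independent.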

How the results depend on the processing

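Across up to 20 alternatives no member reversed its direction. IGFALS fell below the fold change for a call at -1.43 (library size alone) and -1.85 (without the liver of boar 71), and GHR and IGF1R rose above it at 2.28 and 2.46 (library size alone), a scaling that puts the median of all genes at 0.71. Calls over all genes came to 3633 (1814 higher in backfat, 1819 in liver), to 1852 with at least 10 counts in every library, a filter under which IGFBP1 has no value, and to 4214 by library size alone (2874 and 1340). With the replicate block for the boar 6 members were called and 8 passed the adjusted p, and it changed no other call of a member. The called genes among the other ligands, receptors and binding proteins numbered 1, 2 without a filter (GHRHR was added), 0 without the liver of boar 67 and the backfat of boar 69 together, chosen after seeing the data, and 0 to 1 with 1 library left out. Proteases ranged from 3 to 5 with 1 library left out, PAPPA passing the filter and being called in 6 of the 10 fits. Adaptors numbered 2 by library size alone, 2 without the liver of boar 67 and the backfat of boar 69 together, and 1 to 2 with 1 library left out. The IGF2 partners numbered 2 by library size alone, with DESeq2 and without a filter, and 1 to 2 with 1 library left out. With a pseudocount of 2, 13 nearest genes were shared. The cause of these shifts was not tested. Depth limits IGF1 in liver, at 48 to 167 counts, and the 0 of IGFBP1 in backfat.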
